A study of Mus musculus with 11 samples.

Results

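The cell's antioxidant genes were followed in bulk RNA-seq of whole mouse aortas from a study of Mpst, the gene of 3-mercaptopyruvate sulfurtransferase, which produces hydrogen sulfide and persulfides. The set holds 42 genes, chosen by symbol from 27179 genes in the count table: Nfe2l2, which encodes the transcription factor NRF2, its inhibitor Keap1, and genes of glutathione, peroxide, superoxide, heme, iron and quinone handling, many of them textbook NRF2 targets. Of these, 41 passed the filter on low counts, among 14303 genes tested, and Slc7a11 did not. The rule used names only, and no measured value. KO_HFD_LNAME holds 3 libraries from Mpst knockout mice, called treated knockouts below, fed fat as 45% of calories together with the nitric oxide synthase inhibitor L-NAME. WT_HFD_LNAME holds 4 libraries from C57BL6/J wild-type mice given the same diet and inhibitor, called treated wild types, and WT_CD holds 4 from wild-type mice fed chow (fat at 10% of calories), called chow wild types. In the treated groups the diet lasted 15 weeks from an age of 6 to 7 weeks and the inhibitor was given for 5 more weeks, per the labels. For chow the labels state 15 weeks and no starting age. Age and time on the diet may therefore differ between treated and chow mice, and cannot be told apart from the treatment. No group holds knockouts on chow, and the diet and the inhibitor were given together, so neither can be told apart from the other. The arch, thoracic and abdominal parts of the aorta were taken and the surrounding fat was cleared. The labels say nothing of separate animals per library, of sex or of how the knockout was made, so a p-value measures the spread between these samples, which may be technical.

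NRF2 is held in the cytoplasm and sent for degradation by KEAP1, a protein whose cysteines sense oxidants and electrophiles, reactive sulfur species among them. When KEAP1 is modified, NRF2 accumulates, enters the nucleus with a small MAF partner and binds antioxidant response elements at genes of glutathione synthesis, thioredoxin reduction and quinone detoxification. Because NRF2 is controlled mainly at the protein level, the mRNA of its targets is the usual RNA readout of its activity. In the vessel wall, superoxide consumes nitric oxide, and the secreted superoxide dismutase SOD3 is a major guard against this.

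The promoters of the set were searched for the core of the antioxidant response element, TGACNNNGC, and for the related AP-1 site TGACTCA, on both strands of RefSeq windows of GRCm38.p6 that run from 250 bases before to 50 after each start. A run of TGACTCAGC counts for both motifs. A window was matched for 36 of the 42 genes, all but Gclc, Gsr, Prdx6, Sod3, Hmox1 and Gsta4. TGACNNNGC was found for 8 of the 36 genes (22.2%), against 14% of all genes with a window and 12.4% of all windows: Gclm, Gsta3, Mgst1, Nfe2l2, Prdx1, Sod1, Srxn1 and Txnrd1. TGACTCA was found for 6 of the 36 (16.7%), against 5.95% of all genes and 5.2% of all windows: Aox1, Glrx, Gstp1, Osgin1, Prdx1 and Srxn1. The 250 bases before the start are shown for 6 genes with a match, 5′ to 3′ on the gene's strand: canonical NRF2 targets (Gclm, Prdx1, Srxn1, Txnrd1), the gene with the widest spread (Mgst1) and a variable transferase (Gsta3). Capitals mark the matches to either motif or its reverse complement.
Gclm, chr3:122245307-122245556, + strand: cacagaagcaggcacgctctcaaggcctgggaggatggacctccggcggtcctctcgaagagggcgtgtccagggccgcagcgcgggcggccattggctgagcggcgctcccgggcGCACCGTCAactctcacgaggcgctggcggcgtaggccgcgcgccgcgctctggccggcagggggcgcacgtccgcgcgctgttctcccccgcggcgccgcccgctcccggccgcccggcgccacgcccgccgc
Prdx1, chr4:116685349-116685598, + strand: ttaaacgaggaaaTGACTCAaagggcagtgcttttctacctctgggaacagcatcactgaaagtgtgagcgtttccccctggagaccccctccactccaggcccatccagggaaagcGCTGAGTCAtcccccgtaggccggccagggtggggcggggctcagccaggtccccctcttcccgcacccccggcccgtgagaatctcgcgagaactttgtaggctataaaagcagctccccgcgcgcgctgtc
Srxn1, chr2:152105274-152105523, + strand: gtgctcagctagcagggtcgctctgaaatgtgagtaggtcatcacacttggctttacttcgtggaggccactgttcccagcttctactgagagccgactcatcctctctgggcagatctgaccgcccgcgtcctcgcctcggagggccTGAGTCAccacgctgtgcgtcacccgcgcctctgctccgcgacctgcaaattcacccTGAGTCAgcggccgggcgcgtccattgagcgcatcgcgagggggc
Txnrd1, chr10:82858956-82859205, + strand: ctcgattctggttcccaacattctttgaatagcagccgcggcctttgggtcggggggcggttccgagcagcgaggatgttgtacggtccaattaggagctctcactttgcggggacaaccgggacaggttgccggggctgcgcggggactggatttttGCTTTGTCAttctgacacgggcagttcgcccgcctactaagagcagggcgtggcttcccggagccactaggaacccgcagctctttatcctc
Mgst1, chr6:138140277-138140526, + strand: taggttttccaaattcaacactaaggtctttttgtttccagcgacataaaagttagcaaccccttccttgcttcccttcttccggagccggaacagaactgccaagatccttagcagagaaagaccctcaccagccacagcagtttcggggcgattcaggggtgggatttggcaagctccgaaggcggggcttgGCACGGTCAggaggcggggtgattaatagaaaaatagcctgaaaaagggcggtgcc
Gsta3, chr1:21240335-21240584, + strand: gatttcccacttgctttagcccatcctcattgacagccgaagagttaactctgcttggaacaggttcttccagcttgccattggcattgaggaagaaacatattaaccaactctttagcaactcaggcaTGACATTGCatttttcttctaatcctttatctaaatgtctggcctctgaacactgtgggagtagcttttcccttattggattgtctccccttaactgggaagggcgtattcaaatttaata
Prdx1 holds TGACTCA in both orientations, 237 and 131 bases before the start, and the second of these lies within its TGACNNNGC match. Srxn1 holds TGACTCA in the reverse orientation 102 and 45 bases before the start, and its TGACNNNGC match lies after the start, outside the bases shown. A match describes letters in the window and does not show binding.

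Library totals ran from 8665968 to 15340697 counts. Mpst had 3, 5 and 4 counts in the treated knockouts (0.231, 0.283 and 0.275 CPM, counts scaled to a common library size), against 25.7 to 36.3 CPM in the treated wild types and 26.5 to 44.1 CPM in the chow wild types, which checks the genotype labels. The 7 smooth muscle markers, which define the main cell of the aortic wall, had a summed CPM of 22902 to 28929 in the treated knockouts, 14927 to 28975 in the treated wild types and 15312 to 34859 in the chow wild types. Aortas had been cleared of fat, but adipocyte markers were present in every library, with summed CPM of 10 genes of 4904 to 7894 in the treated knockouts, 4475 to 20994 in the treated wild types and 1386 to 19193 in the chow wild types, and none of the 10 was at 0. Summed CPM of 5 brown fat markers, Ucp1 among them, was 1146 to 2551 in the treated knockouts, 968 to 4224 in the treated wild types and 115 to 4352 in the chow wild types. Treated wild-type library 3 and chow library 3 held the most adipocyte RNA and the least smooth muscle RNA of their groups. Their adipocyte sums were 20994 and 19193, of which Fabp4 alone gave 12754 and 11883 CPM, and their smooth muscle sums were 14927 and 15312. These sums cover different genes and are not scaled by length, so they do not show which cell type held more RNA. Chow libraries 1 and 2 stood apart in the share of counts on the ribosomal RNA gene Rn45s (10.1% and 17.4%, against 0.815% to 2.98% elsewhere). Other markers differed too, with ranges given for treated knockouts, treated wild types and chow wild types in this order. Summed CPM of 7 nerve markers was 50.1 to 151, 56.7 to 479 and 8.70 to 15.3. That of 8 endothelial markers was 606 to 704, 540 to 986 and 174 to 452. That of 12 cardiac muscle markers was 72.0 to 147, 79.2 to 2340 and 50.8 to 161. In bulk tissue, fewer cells of a type and less RNA per cell cannot be told apart.

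No gene of the set passed the test in any comparison. With edgeR's quasi-likelihood test and Benjamini-Hochberg adjustment over all 14303 genes, 0 of 41 were called at an adjusted p under 0.05 in treated knockouts against treated wild types, where 0.0140% of all genes were called. The count was also 0 of 41 in treated wild types against chow wild types (1.48% of all genes), in treated knockouts against chow wild types (0.315%) and in the test over the 3 groups (0.224%). At an unadjusted p under 0.05 the set had 1, 2, 6 and 3 genes in these 4 tests, that is 1 gene where 5.12% of all genes passed, 2 where 15.1% did, 6 where 13.3% did and 3 where 13.9% did. DESeq2, with its own adjusted p, called 0 of the set in treated knockouts against treated wild types, where it called 0.157% of all genes, and 0 in treated against chow wild types (5.39% of all genes). It called 1 of 42, Txn1, in treated knockouts against chow wild types (3.42% of all genes) and over the 3 groups (5.91%). The authors' deposited tables for the first and second comparison also list 0 of the set at an adjusted p under 0.05, against 0.403% and 3.84% of all genes.

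The median log2 fold change of the 41 genes was -0.15 in treated knockouts against treated wild types, with 32 of 41 below 0, beside a median of -0.01 over all tested genes. It was -0.03 in treated against chow wild types, with 22 below 0, beside -0.03 over all genes. It was -0.20 in treated knockouts against chow wild types, with 36 below 0, beside -0.04 over all genes. Of all 14303 tested genes, 7481, 7709 and 7964 were below 0 in the same order. Genes measured in the same libraries are not independent, so the counts of signs are a description. Both comparisons of the knockouts share the knockout libraries, and the comparison of wild types shares a group with each of them. These medians moved with single libraries: that against treated wild types was -0.07 without treated wild-type library 3, and that of knockouts against chow was -0.04 without chow library 3 and -0.36 without chow libraries 1 and 2. That of treated against chow wild types was -0.12 without chow library 2 or without treated wild-type library 3, 0.04 without chow library 3 and -0.23 without chow libraries 1 and 2. Without treated wild-type library 3 and chow library 3 together, the medians were -0.07, 0.01 and -0.04 in the same order.

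**Figure D1:**
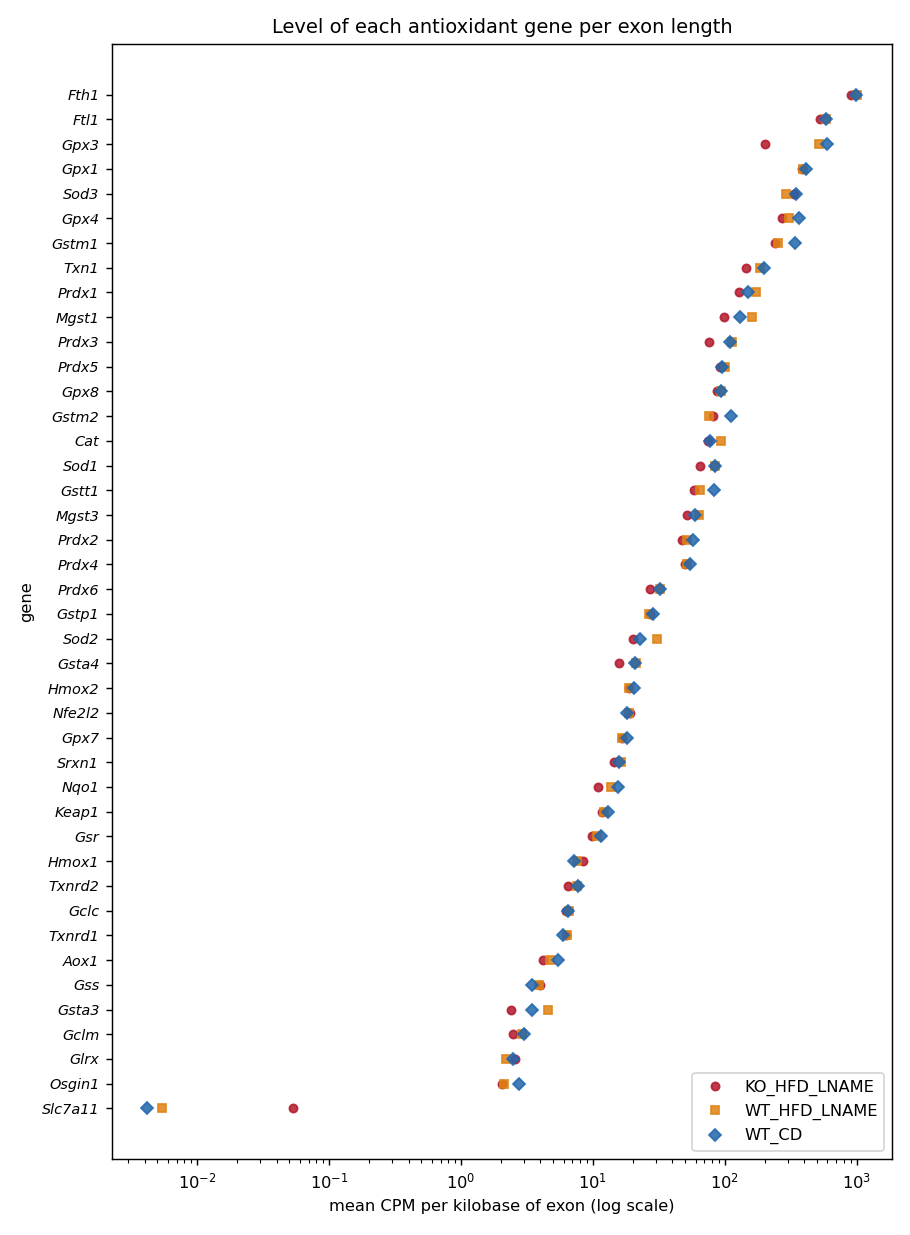
Mean level of each of the 42 genes on a logarithmic axis, in CPM per kilobase of exon, with a circle for the 3 treated knockouts, a square for the 4 treated wild types and a diamond for the 4 chow wild types. The symbols of a gene lie close together beside a range from 0.018 for Slc7a11 to 973 for Fth1 over all libraries, and Gpx3 and Slc7a11 have the knockout symbol farthest from the others.

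Levels between genes were compared as CPM per kilobase of exon, averaged over all libraries. The iron-storing ferritin chains led, with Fth1 at 973 and Ftl1 at 572. The secreted glutathione peroxidase Gpx3 followed at 456, then the cytosolic peroxidase Gpx1 at 397 and the secreted dismutase Sod3 at 321. The lowest tested genes were Osgin1 at 2.32, the deglutathionylating glutaredoxin Glrx at 2.39 and the glutamate-cysteine ligase modifier Gclm at 2.83. Ftl1 has 2 pseudogenes named after it, and Gpx4, Prdx6 and Gstm2 have 1 each, so reads may be shared with these copies. Only names that start with the exact symbol followed by -ps were counted. Copies named otherwise, of these or of the other genes, were not searched for.

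Neither the NRF2 gene nor its inhibitor was called in any comparison. Nfe2l2 was measured at 69.3, 76.4 and 72.4 CPM in the treated knockouts, 59.0, 84.7, 75.7 and 64.8 CPM in the treated wild types and 70.6, 69.5, 74.5 and 60.7 CPM in the chow wild types. The 3 groups overlapped, and the gene (chromosome 2, 75675513 to 75704641, minus strand, GRCm38) differed by a log2 fold change of 0.03 (SE 0.14, 95% interval -0.26 to 0.33) in treated knockouts against treated wild types. Against chow, the treated wild types differed by 0.05 (95% interval -0.23 to 0.32). Keap1 was measured at 59.0, 52.7 and 54.0 CPM in the treated knockouts, 55.5, 52.1, 56.8 and 62.0 CPM in the treated wild types and 61.0, 56.5, 67.0 and 62.3 CPM in the chow wild types. Its libraries lay within a narrow band, with a log2 fold change of -0.04 (95% interval -0.26 to 0.19) in treated knockouts against treated wild types and -0.12 (95% interval -0.33 to 0.09) in treated against chow wild types. Keap1 overlaps the antisense transcript Gm16754 in its exons, and the counting is not stated to have used strand.

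**Figure D2:**
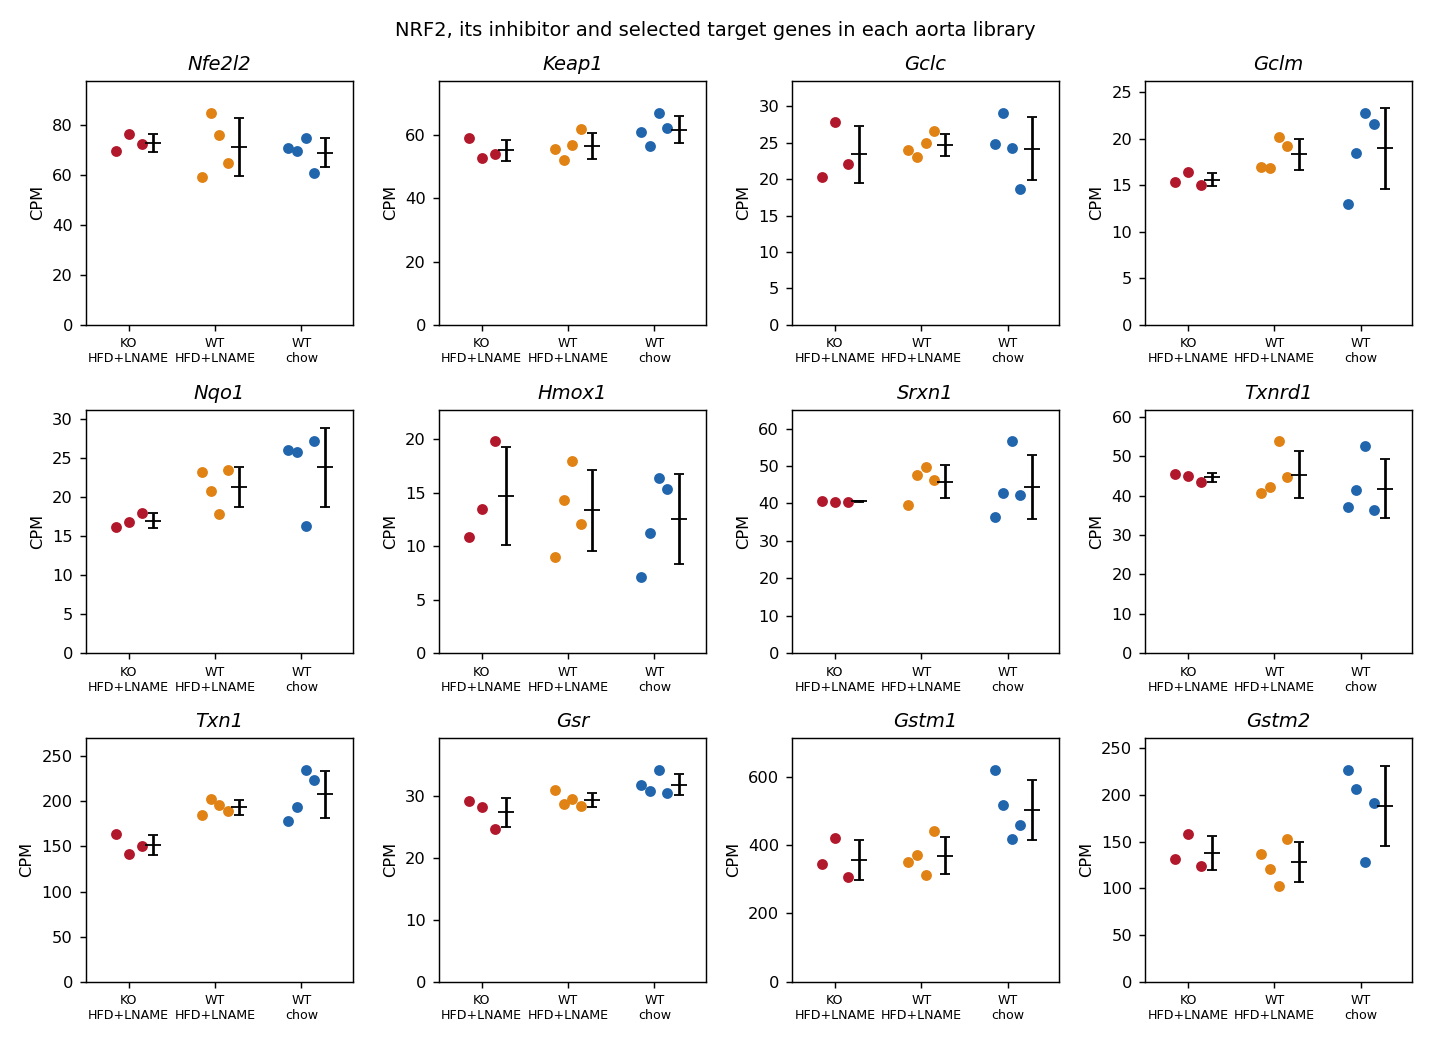
CPM of 12 genes in each library (points), with the mean and SD of each group in black, for treated knockouts on the left, treated wild types in the middle and chow wild types on the right; each axis starts at 0. Txn1 is lower in all 3 treated knockouts than in every wild-type library, and chow library 3 lies apart from the other chow libraries in Nqo1 and Gstm2.

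Glutathione is made from cystine taken up by the transporter SLC7A11, then by glutamate-cysteine ligase (GCLC and GCLM) and glutathione synthetase (GSS), and GSR recycles its oxidised form. None of the 4 tested genes of this group was called in any comparison. Gclc was measured at 20.3, 27.8 and 22.1 CPM in the treated knockouts, 24.0, 23.1, 24.9 and 26.6 CPM in the treated wild types and 24.8, 29.1, 24.3 and 18.6 CPM in the chow wild types. Gclm was measured at 15.4, 16.4 and 15.0 CPM in the treated knockouts, 17.0, 16.9, 20.2 and 19.2 CPM in the treated wild types and 13.0, 18.5, 22.8 and 21.6 CPM in the chow wild types. All 3 treated knockouts lay below all 4 treated wild types in Gclm, at a log2 fold change of -0.23 (SE 0.17, 95% interval -0.62 to 0.15), and overlapped the chow wild types. Gclc had -0.07 (95% interval -0.42 to 0.27) in treated knockouts against treated wild types, and its groups overlapped. Gsr was measured at 29.1, 28.2 and 24.7 CPM in the treated knockouts, 30.9, 28.6, 29.5 and 28.4 CPM in the treated wild types and 31.7, 30.8, 34.2 and 30.5 CPM in the chow wild types. Gsr had the narrowest spread of the set, and its treated knockouts lay below every chow wild type, at a log2 fold change of -0.22 (SE 0.10, edgeR adjusted p = 0.357). Gss ran from 16.3 to 27.4 CPM over the 11 libraries, with overlapping groups, and its exons overlap Acss2, Gssos1 and Gssos2. Gclm overlaps Gm17494 and Gm6061 in its exons.

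Slc7a11 was near the floor. It had 26, 4 and 0 counts in the treated knockouts, 1, 0, 1 and 2 in the treated wild types and 0, 0, 1 and 2 in the chow wild types. Treated knockout library 1 held most of its counts, at 2.0 CPM, the floor of 3 counts being 0.231 CPM there. That library also had the highest summed CPM of the 6 B cell markers, 579, against 141 and 154 in the other treated knockouts. Treated wild-type library 3 had the next highest sum, 369, and 1 count of Slc7a11. The part of B cells was not tested.

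Of the glutathione peroxidases, which reduce hydrogen and lipid peroxides, 5 were tested, 4 were below 0 in treated knockouts against treated wild types and none was called. Gpx3 was measured at 301, 329 and 474 CPM in the treated knockouts, 462, 1289, 1287 and 679 CPM in the treated wild types and 430, 409, 2573 and 868 CPM in the chow wild types. Treated wild-type libraries 2 and 3 and chow library 3 were high, and the groups overlapped. The mean was 368 ± 92.9 CPM (SD, n = 3) in the treated knockouts, against 929 ± 424 CPM (SD, n = 4) in the treated wild types and 1070 ± 1024 CPM (SD, n = 4) on chow. The log2 fold change was -1.34 (SE 0.64, 95% interval -2.75 to 0.08, edgeR adjusted p = 0.950) against treated wild types and -1.54 (SE 0.65, edgeR adjusted p = 0.335) against chow wild types, the lowest value of the set in both. Over 20 alternative settings the difference from chow ran from -2.22, without chow libraries 1 and 2, to -0.63. The latter was without treated wild-type library 3 and chow library 3, an alternative chosen after the data were seen. The difference from treated wild types ran from -1.56 to -1.14 over 20 alternative settings and was called under none. The authors' deposited table lists Gpx3 at a log2 fold change of -0.84 and an adjusted p of 0.0692 in treated knockouts against treated wild types. DESeq2 as run here gave -1.34 for this comparison, with an adjusted p of 0.886. How the deposited fold changes were estimated is not given in the sources used here, so their size may not be comparable. Adipocyte markers were also highest in libraries 2 and 3 of the treated wild types (summed CPM of 13860 and 20994) and in chow library 3 (19193). Other libraries differed: treated knockouts 1 and 3 had sums of 7894 and 7873 with Gpx3 at 301 and 474 CPM. Treated wild-type library 4 had a lower sum, 4475, with Gpx3 at 679 CPM. The part of adipocyte RNA in Gpx3 was not tested. Gpx4, which reduces lipid peroxides in membranes, ran from 255 to 1203 CPM and was highest in chow library 3. Gpx1, Gpx7 and Gpx8 differed by -0.02, 0.02 and -0.12 on the log2 scale in treated knockouts against treated wild types.

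Peroxiredoxins reduce peroxides through a cysteine, and sulfiredoxin (SRXN1) restores the over-oxidised form. None of the 7 genes of this group was called, and the log2 fold change was above 0 for 0 of 7 in treated knockouts against treated wild types, for 5 of 7 in treated against chow wild types and for 0 of 7 in treated knockouts against chow wild types. Prdx1 was measured at 396, 383 and 400 CPM in the treated knockouts, 429, 647, 576 and 439 CPM in the treated wild types and 323, 389, 672 and 440 CPM in the chow wild types. The treated knockouts lay below all treated wild types in Prdx1, a cytosolic member and NRF2 target, at a log2 fold change of -0.41 (SE 0.25, 95% interval -0.96 to 0.14, edgeR adjusted p = 0.950), and overlapped the chow wild types. Srxn1 was measured at 40.7, 40.4 and 40.5 CPM in the treated knockouts, 39.6, 47.7, 49.7 and 46.2 CPM in the treated wild types and 36.5, 42.7, 56.6 and 42.2 CPM in the chow wild types. The 3 treated knockouts ran from 40.4 to 40.7 CPM, and the log2 fold change was -0.18 (SE 0.14, 95% interval -0.49 to 0.14). Prdx2 was measured at 149, 127 and 156 CPM in the treated knockouts, 136, 162, 177 and 155 CPM in the treated wild types and 126, 146, 232 and 195 CPM in the chow wild types. Prdx2, abundant in red blood cells, had a log2 fold change of -0.13 (95% interval -0.57 to 0.31), with groups overlapping and exons that overlap Junb and Rnaseh2a. Summed CPM of the 8 erythroid markers in the file ran from 1321 to 3714 in the treated knockouts, 1220 to 2379 in the treated wild types and 926 to 10466 in the chow wild types. Chow libraries 1 to 4 had sums of 926, 10380, 6478 and 10466, with Prdx2 at 126, 146, 232 and 195 CPM. The part of red blood cells in the Prdx2 values was not tested. Prdx3, the mitochondrial member, ran from 52.3 CPM in chow library 1 to 371 CPM in chow library 3. Prdx4, of the endoplasmic reticulum, was lowest in treated wild-type library 3 and chow library 3, at 84.9 and 82.8 CPM.

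Thioredoxin reduces protein disulfides and is itself reduced by thioredoxin reductase. Txn1 was the gene with the smallest p of the set in treated knockouts against treated wild types, in treated knockouts against chow wild types and over the 3 groups. Txn1 was measured at 164, 142 and 150 CPM in the treated knockouts, 185, 203, 196 and 189 CPM in the treated wild types and 178, 194, 235 and 224 CPM in the chow wild types. Every treated knockout lay below every wild-type library of both diets. The gene (chromosome 4, 57943373 to 57956411, minus strand, GRCm38) averaged 152 ± 10.9 CPM (SD, n = 3) in the treated knockouts, against 193 ± 8.01 CPM (SD, n = 4) in the treated wild types and 208 ± 26.2 CPM (SD, n = 4) in the chow wild types. The log2 fold change was -0.34 (SE 0.13, 95% interval -0.63 to -0.06) against treated wild types, with an edgeR adjusted p of 0.865, and -0.45 (SE 0.13, 95% interval -0.74 to -0.16) against chow wild types, with an edgeR adjusted p of 0.167. DESeq2 gave Txn1 an adjusted p of 0.00892 against chow wild types and 0.386 against treated wild types, and the authors' deposited table lists 0.0968 for the treated wild types. Treated wild types against chow wild types gave -0.11 (95% interval -0.37 to 0.16).

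Of the set, 4 genes had all treated knockouts below all treated wild types, Txn1, Prdx1, Gclm and Mgst3, and none lay above, where 3.46% of all genes lay below and 4.41% above. Txn1 and Gsr lay below all chow wild types in the treated knockouts and no gene lay above, where 5.19% of all genes lay below and 7.86% above. In treated against chow wild types the libraries of every gene of the set overlapped, where those of 7.85% of all genes did not. Txnrd1 was measured at 45.4, 45.1 and 43.4 CPM in the treated knockouts, 40.6, 42.2, 53.8 and 44.8 CPM in the treated wild types and 37.0, 41.4, 52.5 and 36.3 CPM in the chow wild types. Txnrd1, the cytosolic reductase and a canonical NRF2 target, had a log2 fold change of -0.02 (95% interval -0.35 to 0.30) in treated knockouts against treated wild types, with overlapping groups. Txnrd2, the mitochondrial reductase, ran from 13.0 CPM in chow library 1 to 72.8 CPM in chow library 3. Glrx had the highest log2 fold change of the set in treated knockouts against treated wild types, 0.23 (95% interval -0.15 to 0.61).

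**Figure D3:**
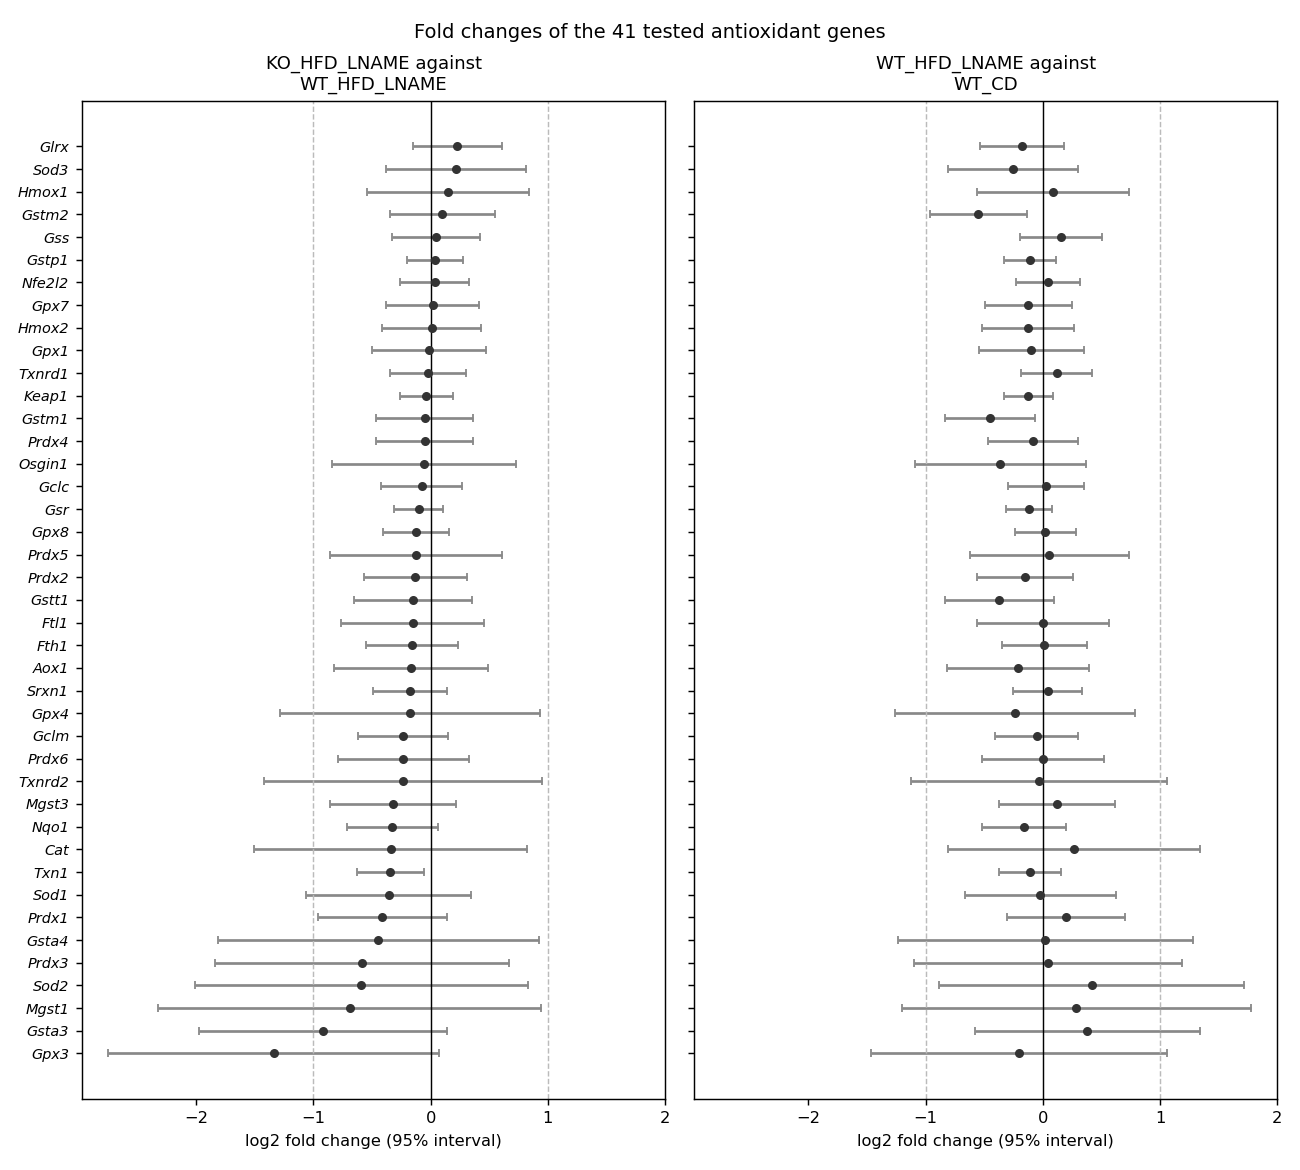
Log2 fold changes of the 41 tested genes with 95% intervals, treated knockouts against treated wild types on the left and treated against chow wild types on the right, ordered by the left panel, with broken lines at -1 and 1. Points lie mostly left of 0 in the left panel (32 of 41) and on both sides in the right panel (22 below 0), and Gpx3, Mgst1, Sod2 and Gsta4 have among the widest intervals.

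The 95% interval of the log2 fold change lay between -1 and 1 for 31 of the 41 genes in treated knockouts against treated wild types, for 31 in treated against chow wild types and for 28 in treated knockouts against chow wild types. For 17, 21 and 14 genes in the same order it also lay within a 1.5-fold change either way. Nfe2l2, Keap1, Gclc, Srxn1 and Txnrd1 were within 1.5-fold by this measure in the first and second comparison. Nqo1, Gclm, Prdx1 and Hmox1 were not within it in the first comparison. For genes outside these counts, a difference above 1.5-fold lies inside the interval, so a missed threshold does not show that the groups were alike.

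Superoxide dismutases convert superoxide to hydrogen peroxide, which catalase then breaks down, and none of these 4 genes was called. Sod3 was measured at 1115, 1632 and 1010 CPM in the treated knockouts, 1125, 1120, 808 and 1262 CPM in the treated wild types and 1821, 1249, 883 and 1187 CPM in the chow wild types. The secreted Sod3 had a log2 fold change of 0.22 (SE 0.27, 95% interval -0.38 to 0.81) in treated knockouts against treated wild types, which was -0.02 without treated knockout library 2, and -0.25 (95% interval -0.81 to 0.30) in treated against chow wild types. Its groups overlapped, and treated wild-type library 3 and chow library 3 were the lowest of their groups. Cat was measured at 200, 152 and 228 CPM in the treated knockouts, 146, 308, 386 and 137 CPM in the treated wild types and 80.4, 140, 421 and 171 CPM in the chow wild types. The peroxisomal Cat was highest in those same libraries, with a log2 fold change of -0.34 (95% interval -1.50 to 0.83) in treated knockouts against treated wild types. This was -0.03 without treated wild-type library 3 and -0.54 without treated wild-type library 4. Sod2, the mitochondrial enzyme, ran from 67.9 CPM in chow library 1 to 535 CPM in chow library 3, and the cytosolic Sod1 from 209 to 488 CPM in the same libraries.

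Among the heme, iron and quinone genes, 7 were tested and none was called. Nqo1 was measured at 16.2, 16.9 and 18.0 CPM in the treated knockouts, 23.2, 20.8, 17.9 and 23.5 CPM in the treated wild types and 26.1, 25.8, 16.3 and 27.2 CPM in the chow wild types. Nqo1, a quinone reductase on chromosome 8 widely used as an NRF2 readout, was at 17.0 ± 0.897 CPM (SD, n = 3) in the treated knockouts, against 21.3 ± 2.56 CPM in the treated wild types and 23.9 ± 5.08 CPM in the chow wild types (SD, n = 4 each). Treated wild-type library 3 and chow library 3 were the low ones of the wild types, and both overlapped the treated knockouts. The log2 fold change was -0.33 (SE 0.18, 95% interval -0.71 to 0.06, edgeR adjusted p = 0.950) against treated wild types and -0.49 (SE 0.18, 95% interval -0.87 to -0.10, edgeR adjusted p = 0.262) against chow wild types. Without treated wild-type library 3 and chow library 3, an alternative chosen after the data were seen, Nqo1 was called in treated knockouts against chow wild types (log2 fold change -0.63, edgeR adjusted p = 0.0275) and over the 3 groups (adjusted p = 0.0385). Hmox1 was measured at 10.9, 13.5 and 19.8 CPM in the treated knockouts, 8.99, 14.3, 18.0 and 12.1 CPM in the treated wild types and 7.16, 11.2, 16.4 and 15.3 CPM in the chow wild types. The inducible heme oxygenase Hmox1 overlapped fully between the groups, with a log2 fold change of 0.15 (SE 0.31, 95% interval -0.55 to 0.84) in treated knockouts against treated wild types, which was -0.12 without treated knockout library 3. It was highest in treated knockout library 3, which also had the highest summed CPM of the 9 macrophage markers, 892, against 305 to 674 in all other libraries, and the part of these cells was not tested. Fth1 stayed between 2936 and 3856 CPM, Ftl1 between 535 and 1074 CPM, and Hmox2, whose exons overlap Cdip1, between 34.5 and 58.9 CPM. Aox1 ran from 23.5 to 65.1 CPM and Osgin1 from 4.21 to 13.0 CPM.

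Glutathione transferases couple glutathione to electrophiles, and none of the 8 was called. The log2 fold change was above 0 for 2 of 8 in treated knockouts against treated wild types, for 4 of 8 in treated against chow wild types and for 0 of 8 in treated knockouts against chow wild types. Gstm1 was measured at 345, 420 and 306 CPM in the treated knockouts, 352, 372, 313 and 442 CPM in the treated wild types and 621, 518, 418 and 459 CPM in the chow wild types. Gstm2 was measured at 131, 158 and 124 CPM in the treated knockouts, 137, 121, 103 and 153 CPM in the treated wild types and 227, 206, 128 and 191 CPM in the chow wild types. These neighbours on chromosome 3 had the smallest p-values of the set in treated against chow wild types: Gstm2 gave a log2 fold change of -0.55 (SE 0.19, 95% interval -0.97 to -0.13, edgeR adjusted p = 0.184) and Gstm1 of -0.45 (SE 0.18, 95% interval -0.83 to -0.06, edgeR adjusted p = 0.250). Chow libraries 1 and 2 were high in both genes, and the groups overlapped through chow library 3. Without chow library 3, Gstm2 was called at -0.69 (edgeR adjusted p = 0.0386), and without chow libraries 1 and 2 it was at -0.32 (edgeR adjusted p = 0.637). In treated knockouts against treated wild types the values were 0.10 for Gstm2 and -0.05 for Gstm1. The Gstm genes are similar in sequence, so counts may be split between them. Gstt1 was measured at 78.7, 89.2 and 97.8 CPM in the treated knockouts, 102, 94.5, 88.1 and 109 CPM in the treated wild types and 170, 116, 76.1 and 147 CPM in the chow wild types. Chow libraries 1, 2 and 4 lay above every treated library in Gstt1, and chow library 3 below all of these, with a log2 fold change of -0.37 (SE 0.21, edgeR adjusted p = 0.444) in treated against chow wild types. Gsta3 was measured at 7.70, 10.2 and 13.4 CPM in the treated knockouts, 11.2, 17.4, 36.5 and 14.1 CPM in the treated wild types and 7.76, 8.90, 20.9 and 22.9 CPM in the chow wild types. Gsta3 had -0.92 (SE 0.48, 95% interval -1.98 to 0.14, edgeR adjusted p = 0.950) in treated knockouts against treated wild types. Over 20 alternative settings this ran from -1.14, without treated knockout library 3, to -0.44. The latter was without treated wild-type library 3 and chow library 3, chosen after the data were seen. Gstp1 was steady at 37.7 to 46.4 CPM.

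The spread between libraries of a group differed strongly among the genes. The within-group SD on the log2 scale was 1.13 for the microsomal transferase Mgst1, 0.98 for Gsta4, 0.95 for Sod2, 0.90 for Gpx3, 0.83 for Prdx3, 0.79 for Txnrd2, 0.78 for Cat and 0.74 for Gpx4. It was 0.083 for Gsr, 0.098 for Keap1, 0.11 for Gstp1 and Fth1, and 0.13 for Txn1. The median was 0.285 for the 41 genes and 0.290 for all tested genes. Mgst1 was measured at 214, 154 and 230 CPM in the treated knockouts, 159, 395, 610 and 123 CPM in the treated wild types and 53.1, 140, 616 and 246 CPM in the chow wild types. Mgst1 was thus lowest in chow library 1 and highest in chow library 3 and treated wild-type library 3, the libraries with the least and the most adipocyte marker RNA.

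**Figure D4:**
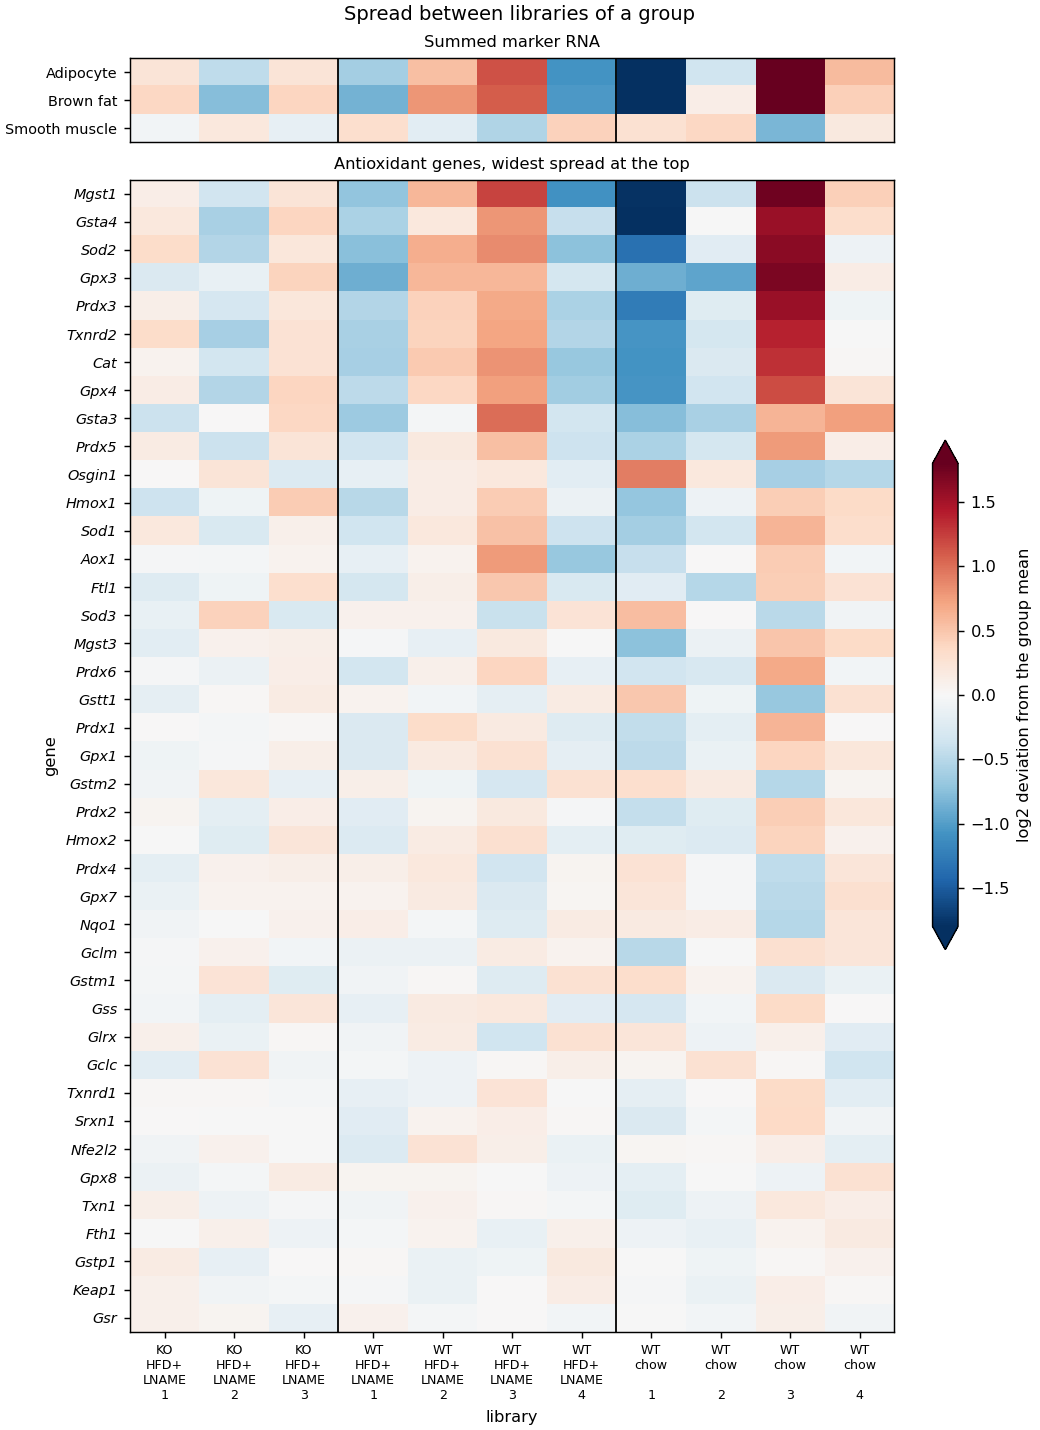
Log2 deviation of each library from the mean of its own group, with summed adipocyte, brown fat and smooth muscle markers above and the 41 tested genes below, ordered by spread. Colours saturate at the ends of the scale. Treated wild-type library 3 and chow library 3 are red for adipocyte and brown fat markers and for most genes at the top, and blue for smooth muscle markers.

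Treated wild-type library 3 and chow library 3 were both the highest of their groups for 21 of the 41 genes (51.2%), against 21.1% of all tested genes. They were both the lowest for 7 genes (17.1%, against 17.2% of all tested genes): Gstt1, Gstm1, Gstm2, Gpx7, Sod3, Nqo1 and Prdx4. The other 13 genes showed neither. These libraries were singled out after their values were seen, so the shares are a description. The genes highest in both include the mitochondrial enzymes Sod2, Prdx3 and Txnrd2, the peroxisomal Cat and the lipid-peroxide enzyme Gpx4. They also include the cytosolic Sod1, Gpx1 and Txnrd1, and Prdx2, Prdx5, Prdx6, Srxn1, Gclm and Gss. The rest are Hmox1, Hmox2, Ftl1, Aox1, Gsta4, Mgst1 and Mgst3. In the adipocyte list, 2 of 10 genes were above 0 and none was called in treated knockouts against treated wild types (median log2 fold change -0.52). All 10 were above 0 with 1 called in treated against chow wild types (median 0.47), where 1.48% of all genes were called. In treated knockouts against chow wild types, 4 of 10 were above 0 with 1 called (median -0.05), where 0.315% of all genes were called. What part adipocyte RNA has in the values of these genes was not tested.

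Beyond the set, 86 other redox genes were listed, of NADPH supply, NRF2 partners, thioredoxin and glutathione turnover, iron handling and detoxification, and 78 were tested. None was called by edgeR in the 3 comparisons, with 3, 5 and 12 at an unadjusted p under 0.05 (3.85%, 6.41% and 15.4% of the 78, beside 5.12%, 15.1% and 13.3% of all genes). DESeq2 called 0, 0 and 3 of them, the last being 3.66% of the 82 with an adjusted p, beside 3.42% of all genes. Their median log2 fold change was -0.19 in treated knockouts against treated wild types (13 of 78 above 0), -0.08 in treated against chow wild types (30 above 0) and -0.21 in treated knockouts against chow wild types (14 above 0). Of all tested genes, 47.7%, 46.1% and 44.3% were above 0 in the same order. Atox1 was measured at 48.1, 39.9 and 54.9 CPM in the treated knockouts, 76.2, 87.3, 116 and 76.2 CPM in the treated wild types and 68.4, 76.9, 122 and 102 CPM in the chow wild types. Every treated knockout lay below every wild-type library in Atox1, a copper chaperone, at a log2 fold change of -0.90 (SE 0.23, edgeR adjusted p = 0.726) against treated wild types and -0.95 (SE 0.23, edgeR adjusted p = 0.0997) against chow wild types. Txnip was measured at 591, 680 and 691 CPM in the treated knockouts, 963, 868, 1004 and 1034 CPM in the treated wild types and 929, 1039, 1493 and 959 CPM in the chow wild types. Txnip, which binds and inhibits thioredoxin, also lay below every wild-type library in the treated knockouts, at -0.56 (SE 0.20, edgeR adjusted p = 0.822) against treated wild types and -0.76 (SE 0.20, edgeR adjusted p = 0.129) against chow wild types. Mt1 was measured at 106, 146 and 168 CPM in the treated knockouts, 277, 204, 180 and 364 CPM in the treated wild types and 152, 346, 411 and 404 CPM in the chow wild types. The metallothionein Mt1 gave -0.87 (SE 0.35, edgeR adjusted p = 0.927) against treated wild types, where the groups did not overlap, and -1.23 (SE 0.36, edgeR adjusted p = 0.172) against chow wild types. Atox1, Txnip and Mt1 were the 3 genes that DESeq2 called in treated knockouts against chow wild types, with adjusted p of 0.00596, 0.00251 and 0.0284.

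None of the remaining genes of smallest p in this list was called by edgeR. Abcc3, an exporter of conjugates, gave 0.94 (SE 0.43, edgeR adjusted p = 0.950) in treated knockouts against treated wild types, at 0.479 to 2.61 CPM. In treated against chow wild types, the glutathione conjugate exporter Abcc1 gave -0.50 (SE 0.15, edgeR adjusted p = 0.135) and Oxr1, an oxidation resistance gene, gave 0.45 (SE 0.14, edgeR adjusted p = 0.144), and edgeR called both without chow library 3. The heavy chain Slc3a2, partner of SLC7A11, gave 0.45 (SE 0.15, edgeR adjusted p = 0.151), with every treated wild type above every chow wild type. The transferrin receptor Tfrc gave 0.99 (SE 0.33, edgeR adjusted p = 0.170). Txnrd3 gave -0.41 (SE 0.12, edgeR adjusted p = 0.181) in treated knockouts against chow wild types, with groups that did not overlap.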

How the data were processed

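Per the labels' protocols, total RNA came from TRIzol extracts and the library kit was NEBNext Ultra II. The authors deposited whole-number read counts per gene, not normalized. Per the submitters' processing notes, reads were trimmed with Trimmomatic 0.39, aligned to GRCm38/mm10 with HISAT2 2.2.1, counted with featureCounts 2.0.3 and compared with DESeq2 2.11.40.7. Strand setting, handling of reads with several alignments and annotation are not given in the sources used here. The authors' deposited comparison tables give each gene's log2 fold change with its error, Wald score and p-value (raw and adjusted), and the score was not used.

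All 11 libraries were fitted together with edgeR 4.0.16 (filterByExpr with a count minimum of 10, TMM factors of 0.814 to 1.15, quasi-likelihood test, R 4.3.3), with Benjamini-Hochberg adjustment over all tested genes. The procedure was tested on simulated data. Of the 27179 genes in the file, 1319 had no symbol. CPM is scaled by TMM, and exon lengths and overlaps come from GENCODE M21. Alternatives were DESeq2 1.42.0, its size factors, no filter, 2-group fits, a replicate block, Rn45s and mitochondrial genes left out, and libraries left out. Genes, lists and libraries to single out were chosen with earlier results of these data known. Values in every library were given for 13 key genes fixed by name and the 5 of smallest p in each test, and Mgst1 was added for its spread.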

Additional observations from a re-analysis of the deposited data

Results flagged for a closer look

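Nqo1 in chow library 3 lay far from the rest of its group, at 16.3 CPM against 25.8 to 27.2 CPM in the other chow libraries, a gap of 0.870 of the group's whole range. It was the only one of 82 gene and group pairs with 4 libraries to pass this criterion, which chance alone flags in about 1 of 20 groups. The same library held the most adipocyte marker RNA of the chow group, and the part of that in the Nqo1 value was not tested.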

How the results depend on the processing

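Of the members called in each comparison (0 by edgeR), the count stayed at 0 in treated knockouts against treated wild types under every alternative run. It was 0 to 1 with single libraries left out in treated against chow wild types (Gstm2, without chow library 3). It was 1 in treated knockouts against chow wild types and over the 3 groups with DESeq2 (Txn1), and 1 in both without chow library 3 and treated wild-type library 3, added after the data were seen (Nqo1).

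Counts over all genes moved more. Treated knockouts against treated wild types had 2 called genes, and 33 with DESeq2, 1 in the fit of those groups alone, 1 with the replicate block, 1 without treated wild-type libraries 3 and 4, and 1 to 3 with single libraries left out. Treated against chow wild types had 212 (138 without the filter, 873 with DESeq2, 31 in the fit of those groups alone, 42 with the replicate block, 0 without chow libraries 1 and 2, where 1627 had an edgeR p under 0.05, 59 without treated wild-type libraries 3 and 4, 452 without chow library 3 and treated wild-type library 3, and 2 to 521 with single libraries left out). Treated knockouts against chow wild types had 45 (29 without the filter, 555 with DESeq2, 3 in the fit of those groups alone, 13 with the replicate block, 26 without Rn45s and mitochondrial genes, 4 without chow libraries 1 and 2, 239 without chow library 3 and treated wild-type library 3, and 4 to 102 with single libraries left out). The 3 groups gave 32 (958 with DESeq2, 10 with the replicate block, 2 without chow libraries 1 and 2, 3 without treated wild-type libraries 3 and 4, 279 without chow library 3 and treated wild-type library 3, and 3 to 191 with single libraries left out). The cause of these shifts was not tested.

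The labels state no pairing by replicate number. Same-number correlations ran from -0.23 to 0.59, and 3 of 11 libraries correlated best with their own number. The highest was that of treated wild-type library 3 with chow library 3. Whether libraries of the same number share a batch cannot be told from these values. The replicate block called 0 members in each test. Of 57 pairs of named gene and comparison, 31 kept their sign under all 20 alternatives and 26 changed it under at least 1, none of them as a called value. Slc7a11, with 37 counts in all, is limited by depth. Counts cover the genes that passed the filter.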
